A study of Rattus norvegicus and Mus musculus and Macaca mulatta with 84 samples.

Results

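Shifted 5′ isomiRs are mature microRNAs (miRNAs) whose first base lies upstream or downstream of the annotated start. In the 4 liver small RNA tables of the series, each such form has its own entry, named after the canonical miRNA with a signed offset. The forms described here were chosen by their abundance: the mean over the libraries of a table had to reach 10 RPM (reads per 1000000 miRNA reads). This gave 918 shifted forms among 6067 entries of any kind and 4234 entries with an offset. UCD-T2DM rats had 205 of them, Zucker rats 185, mice 206 and monkeys 322. Within these, 195, 162, 170 and 292 reached 10 RPM in every group of their table, and the others did so through some of the groups. Their abundance as a set is therefore given as a description. Levels of single named forms are compared between groups below, over all canonical and shifted forms that reached 10 RPM. A form can thus have entered through the group in which it is high. The closest values on either side of the limit were 10.1 RPM (miR-125b-1-5p +2) and 9.95 RPM (miR-125b-2-5p +2) in UCD-T2DM rats. They were 10.0095 RPM (let-7g-5p +3) and 9.83 RPM (miR-206-3p +1) in Zucker rats, 10.1 RPM (miR-148a-3p -1) and 9.83 RPM (miR-3068-3p +1) in mice, and 10.025 RPM (miR-338-5p -2) and 9.98 RPM (miR-148b-5p -1) in monkeys.

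The study set several models of diabetes and obesity beside each other in liver. UCD-T2DM rats, the UC Davis model of type 2 diabetes, were sampled as prediabetic animals (n = 3), with the diabetic phenotype for 2 weeks (n = 6) and for 3 months (n = 3). Zucker fatty rats came as obese and lean animals and as animals given BT2 or vehicle, with 5 libraries in each of these 4 groups. The labels of all 4 Zucker groups, the lean one included, name a leptin receptor mutation strain, and they do not say whether the BT2 and vehicle rats were obese. BT2, a benzothiophene carboxylic acid, inhibits the kinase that restrains branched-chain ketoacid dehydrogenase. C57BL/6J mice came as ob/ob mice, streptozotocin (STZ) mice and controls, with 5 libraries in each group. Both mouse comparisons with controls share the same 5 control libraries, and both UCD-T2DM comparisons with prediabetic rats share the same 3. The labels list a leptin receptor mutation for ob/ob mice, a strain known for a mutation of leptin itself. Streptozotocin destroys insulin-producing beta cells. Rhesus monkeys had a diet with fish oil (n = 3) or with sunflower oil as control (n = 3), and their miRNAs carry human names. UCD-T2DM livers also gave polyadenylated RNA from 5 prediabetic, 4 2-week, 5 3-month and 6 6-month samples. The labels used here give no age, and they do not say outright that the libraries of a group came from separate animals. The UCD-T2DM sample names carry a number that differs between libraries and in part recurs between small RNA and RNA, without a statement of what it marks. The p-values measure the spread between libraries.

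A miRNA is cut from its precursor in 2 steps. Drosha trims the primary transcript in the nucleus and sets the 5′ end of the miRNA on the 5p arm. Dicer then cuts the hairpin in the cytoplasm and sets the 5′ end of the miRNA on the 3p arm. Bases 2 to 8, the seed, pair with target messenger RNAs. A start moved by a single base therefore changes the seed, while changes at the 3′ end do not. In hepatocytes miR-122 is by far the best known miRNA. It binds messenger RNAs of lipid metabolism and the RNA of hepatitis C virus.

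The sequences show how far the seed moves in the forms on which the results turn. Each pair gives a rat canonical miRNA and its shifted form in RefSeq sequence of the GRCr8 build, 5′ to 3′, with the seed in capitals. The files give the start only, so each shifted form is drawn to the canonical 3′ end. The miR-101 pairs and miR-192-5p, miR-203a-3p, miR-21-5p and miR-30a-5p are shown because the ratio of the forms differed between groups in rats or mice. miR-140-3p is shown because its shifted form was the more abundant one in both rat tables and in mice.
miR-101b-3p: uACAGUACugugauagcugaa
miR-101b-3p -1: gUACAGUAcugugauagcugaa
miR-101a-3p: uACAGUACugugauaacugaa
miR-101a-3p -1: gUACAGUAcugugauaacugaa
miR-192-5p: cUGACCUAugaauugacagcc
miR-192-5p +1: uGACCUAUgaauugacagcc
miR-203a-3p: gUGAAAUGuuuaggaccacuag
miR-203a-3p +1: uGAAAUGUuuaggaccacuag
miR-21-5p: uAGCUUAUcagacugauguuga
miR-21-5p -1: gUAGCUUAucagacugauguuga
miR-140-3p: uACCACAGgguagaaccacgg
miR-140-3p +1: aCCACAGGguagaaccacgg
miR-30a-5p: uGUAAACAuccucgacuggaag
miR-30a-5p +1: gUAAACAUccucgacuggaag
The canonical miR-101b-3p lies at chr1:236273982-236274002 on the plus strand, within the gene Rcl1, and miR-101a-3p at chr5:121081691-121081711 on the minus strand. Both share 1 canonical seed, and their -1 forms share another. Canonical miR-192-5p lies at chr1:212994232-212994252 and miR-203a-3p at chr6:137020756-137020777, both on the plus strand. Canonical miR-21-5p lies at chr10:71902653-71902674 on the minus strand. miR-140-3p lies at chr19:52375353-52375373, within Wwp2, and miR-30a-5p at chr9:33233946-33233967, both on the plus strand.

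The direction of the offsets was read from the rat miR-10b-5p entries. RefSeq starts this miRNA 2 bases downstream of the start that reads at offset -2 would have, and the files list reads at -2 but no canonical entry. At -2 the form has the same seed as miR-10a-5p, a miRNA encoded, like miR-10b, in a Hox gene cluster. A minus sign was therefore taken as upstream and a plus sign as downstream.
miR-10a-5p: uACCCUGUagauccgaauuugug
miR-10b-5p: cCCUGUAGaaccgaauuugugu
miR-10b-5p -2: uACCCUGUagaaccgaauuugugu
Canonical miR-10a-5p lies at chr10:81779730-81779752 and miR-10b-5p at chr3:80035886-80035907, within Hoxd4, both on the plus strand. The seed that miR-10b-5p -2 shares with canonical miR-10a-5p is the reason for showing them.

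Liver miRNAs served to check the tissue label, without a set limit, and mice stood apart from the other tables. Canonical miR-122-5p held 37.2% to 46.2% of the reads in UCD-T2DM rats, 33.8% to 48.9% in Zucker rats, 26.6% to 51.5% in monkeys and 2.36% to 6.26% in mice. Mice instead had 7.72% to 13.4% of their reads on canonical miR-192-5p, another miRNA typical of liver. Hepatocyte marker miRNAs summed to 148282 to 225662 RPM in mice, 439817 to 560139 in the rat tables and 353754 to 547770 in monkeys. The blood cell list matched 8 entries in each rat table, 10 in mice and 11 in monkeys, so its sums cover unlike sets of entries. These sums were 6488 to 25236 RPM in mice, 116 to 424 in the rat tables and 2097 to 9083 in monkeys. The reason was not tested. Every library sums to 1000000, so its depth is unknown. The smallest value above 0 in a library, which limits what can be seen of a rare form, was 0.99 to 1.53 RPM in UCD-T2DM rats, 0.54 to 1.58 in Zucker rats, 1.33 to 7.29 in mice and 0.17 to 0.59 in monkeys. In these bulk livers, fewer cells of a type and less of an RNA per cell cannot be told apart. Lanes were shared between groups in Zucker rats and mice, while the UCD-T2DM table came from a single lane and the monkey table from another.

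Starts moved by 1 base downstream were the most frequent kind in all 4 tables. UCD-T2DM rats had 108 forms at offset +1, Zucker rats 100, mice 66 and monkeys 125. Offset -1 came next, with 44, 39, 46 and 76 forms in the same order of tables. Downstream starts numbered 156 in UCD-T2DM rats, 141 in Zucker rats, 120 in mice and 234 in monkeys, against 49, 44, 86 and 88 upstream starts. Together the forms held on average 11.6% of the reads in UCD-T2DM rats, 8.47% in Zucker rats, 8.56% in mice and 5.25% in monkeys. By group, they held 11.3% to 12.1% in prediabetic, 11.1% to 12.1% in 2-week and 10.9% to 11.6% in 3-month UCD-T2DM rats. In Zucker rats the range was 7.88% to 8.51% in obese livers against 8.25% to 9.02% in lean livers, and 8.21% to 8.73% with BT2 against 8.46% to 8.82% with vehicle. In mice it was 7.44% to 9.15% in ob/ob, 8.34% to 9.53% in STZ and 7.47% to 9.24% in control livers. In monkeys it was 4.97% to 5.45% with fish oil against 4.51% to 6.06% with sunflower oil. The ranges overlapped in each of these comparisons.

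**Figure D1:**
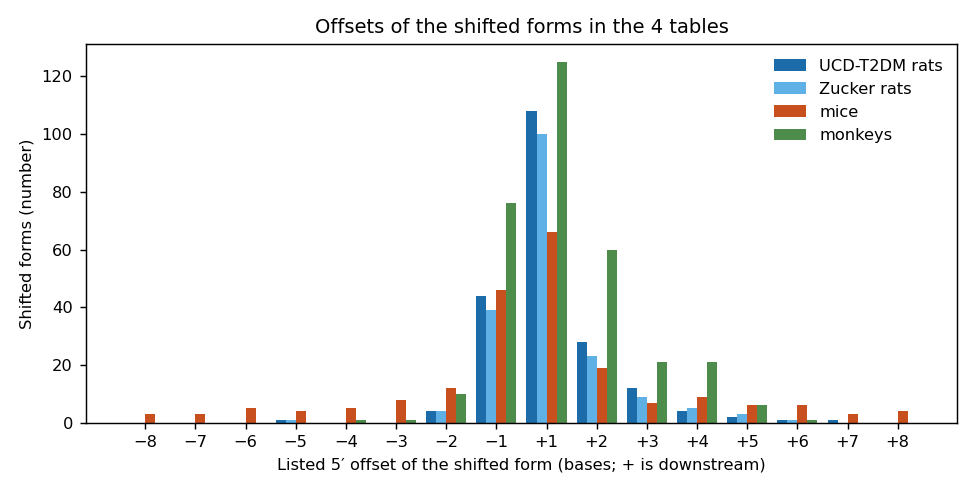
Number of shifted forms of 10 RPM or more on average (y axis) at each listed offset in bases (x axis), in UCD-T2DM rats, Zucker rats, mice and monkeys. The +1 column is the tallest in each table, with 108, 100, 66 and 125 forms. Forms beyond 2 bases number 63 in mice, 51 in monkeys, 21 in UCD-T2DM rats and 19 in Zucker rats.

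Most shifted forms were minor beside their canonical miRNA. The median form stood at 4.71% of its canonical entry in UCD-T2DM rats (201 forms with a canonical entry), at 2.97% in Zucker rats (181), at 14.2% in mice (201) and at 2.01% in monkeys (322). Forms below 1% of the canonical entry numbered 51, 55, 59 and 124, and forms above it 7, 5, 61 and 30. Forms from the 3p arm, whose start is a Dicer cut, had higher percentages than forms from the 5p arm, whose start is a Drosha cut. The medians for 3p and 5p forms were 6.14% and 3.33% in UCD-T2DM rats, 5.83% and 1.93% in Zucker rats, 8.47% and 0.701% in mice, and 3.24% and 0.626% in monkeys. These medians describe forms that share libraries, and the limit of 10 RPM keeps a low percentage in view only for abundant miRNAs, so no test was made.

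The high mouse median came largely from a block of miRNA names between miR-5000 and miR-5199. These 8 names carried 59 of the 206 mouse forms, and 46 of the 59 exceeded their canonical entry. All 59 together summed to 20150 RPM. miR-5105 and miR-5109 each had 16 forms between offsets -8 and +8, all above the canonical entry. miR-5115 had 14 forms, of which 1 exceeded its canonical entry. The other mouse forms had a median of 4.39% of canonical, and 15 of 142 exceeded it. The ladder of starts around miR-5109 is unlike miR-122-5p in rats, where a single shifted start held most of the shifted reads.

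The forms with the highest percentages in each table often stood beside a canonical entry close to 0. They were ranked by the ratio of the table means. The percentages printed in this paragraph are means of the library percentages, leaving out any library with a canonical value of 0. In UCD-T2DM rats miR-145-3p +2, a passenger-side form of a smooth muscle and fibroblast miRNA, had 31.4 RPM against 1.53 RPM for its canonical entry, a mean of 1787%. It was followed by miR-425-3p -1 (320%), miR-421-3p +4 (226%), miR-142-3p +1 (223%), from a miRNA of blood cells, and miR-140-3p +1 (181%). In Zucker rats the order was miR-145-3p +2 (1186%), miR-425-3p -1 (387%), miR-421-3p +4 (195%), miR-140-3p +1 (178%) and miR-142-5p -2 (164%). In mice all 5 came from the miR-5000 block. miR-5099 -2 had 1727 RPM against 8.62 RPM for the canonical entry, and miR-5109 +5 had 1063 RPM against 9.00 RPM; miR-5109 at +4, +3 and -2 followed. In monkeys miR-942 +2 had 20.7 RPM against 0.0333, miR-1262 -2 had 10.4 against 0.0683, miR-139-3p -1 had 52.8 against 1.05, miR-500b -1 had 19.97 against 0.143, and miR-125b-2-3p +2 had 321 against 3.27. In all of these mouse and monkey forms the canonical entry averaged under 10 RPM.

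For miR-122-5p the +1 form was the single most abundant shifted form in 3 of the 4 tables. It averaged 77832 RPM in UCD-T2DM rats, which was 67.1% of all reads on shifted forms kept there, and 52418 RPM in Zucker rats, which was 61.9%. In monkeys it averaged 9976 RPM, or 19.0%. In mice it averaged 56.7 RPM beside 42027 RPM of canonical miR-122-5p, and miR-192-5p +1 led with 51.3% of those reads. As a percentage of canonical miR-122-5p, the +1 form lay between 18.2% and 19.6% in all UCD-T2DM libraries, between 11.8% and 13.2% in all Zucker libraries, between 2.35% and 2.79% in monkeys and between 0.101% and 0.180% in mice. The libraries of a table thus lay close together, and no library of one table reached the range of another. Species, table and sequencing run cannot be told apart here.

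The other starts of miR-122-5p were far rarer. In UCD-T2DM rats they were -1 (653 RPM), +4 (206 RPM), +6 (88.6 RPM), +3 (75.5 RPM), +2 (56.4 RPM), +5 (21.998 RPM) and -2 (15.0 RPM). In Zucker rats -1 averaged 696 RPM and +4 averaged 197 RPM. In mice +4 averaged 165 RPM and +3 averaged 96.2 RPM, both above the +1 form, so the order of the starts was another than in rats. In monkeys +2 averaged 1264 RPM and -1 averaged 1227 RPM. Between conditions the +1 form was called in none of the 9 comparisons. It stood at 12.4% ± 0.174 of canonical in obese and 12.4% ± 0.389 in lean Zucker rats (SD, n = 5 each), a log2 ratio difference of 0.00 with a 95% interval of -0.04 to 0.05. In mice, where the form is rare, ob/ob livers exceeded control livers by 0.41 (adjusted p = 0.139) without overlap. The canonical level itself fell by 0.24 on the log2(RPM + 1) scale in obese rats (adjusted p = 0.0223, limma), and by 0.53 after median-of-ratios rescaling of the libraries (adjusted p = 0.0106).

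A set of 54 forms, matched by name without species prefix and locus number, reached 10 RPM in all 4 tables. For 23 of them the percentage of canonical lay within 4-fold between the highest and the lowest table. The 10 with the highest median percentage give the range, as ratios of the table means in UCD-T2DM rats, Zucker rats, mice and monkeys. miR-425-3p -1 had 309%, 382%, 252% and 739%. miR-140-3p +1, a form of a miRNA best known from cartilage, had 181%, 178%, 185% and 89.8%. miR-142-5p -2 had 103%, 148%, 202% and 679%. The shifted start was the more abundant one in all 4 tables for miR-425-3p -1 and miR-142-5p -2, and in the 3 rodent tables for miR-140-3p +1. miR-10a-5p +1 had 52.2%, 57.1%, 43.8% and 41.2%. miR-30a-3p +1 had 31.4%, 30.6%, 66.4% and 47.6%. miR-192-5p +1 had 14.4%, 14.7%, 43.1% and 211%. Among these miR-10a-5p +1 was the most even and miR-192-5p +1 the least. miR-455-3p +1 had 18.7%, 12.3%, 46.3% and 10.9%. miR-199a-3p +1, a form of a stellate cell and fibroblast miRNA, had 17.8%, 13.9%, 9.03% and 14.4%. miR-200b-3p +1, a form of an epithelial and bile duct miRNA, had 24.1%, 19.4%, 4.97% and 6.33%. The last of the 10, miR-423-3p -1, had 12.5%, 13.7%, 10.0% and 6.87%.

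**Figure D2:**
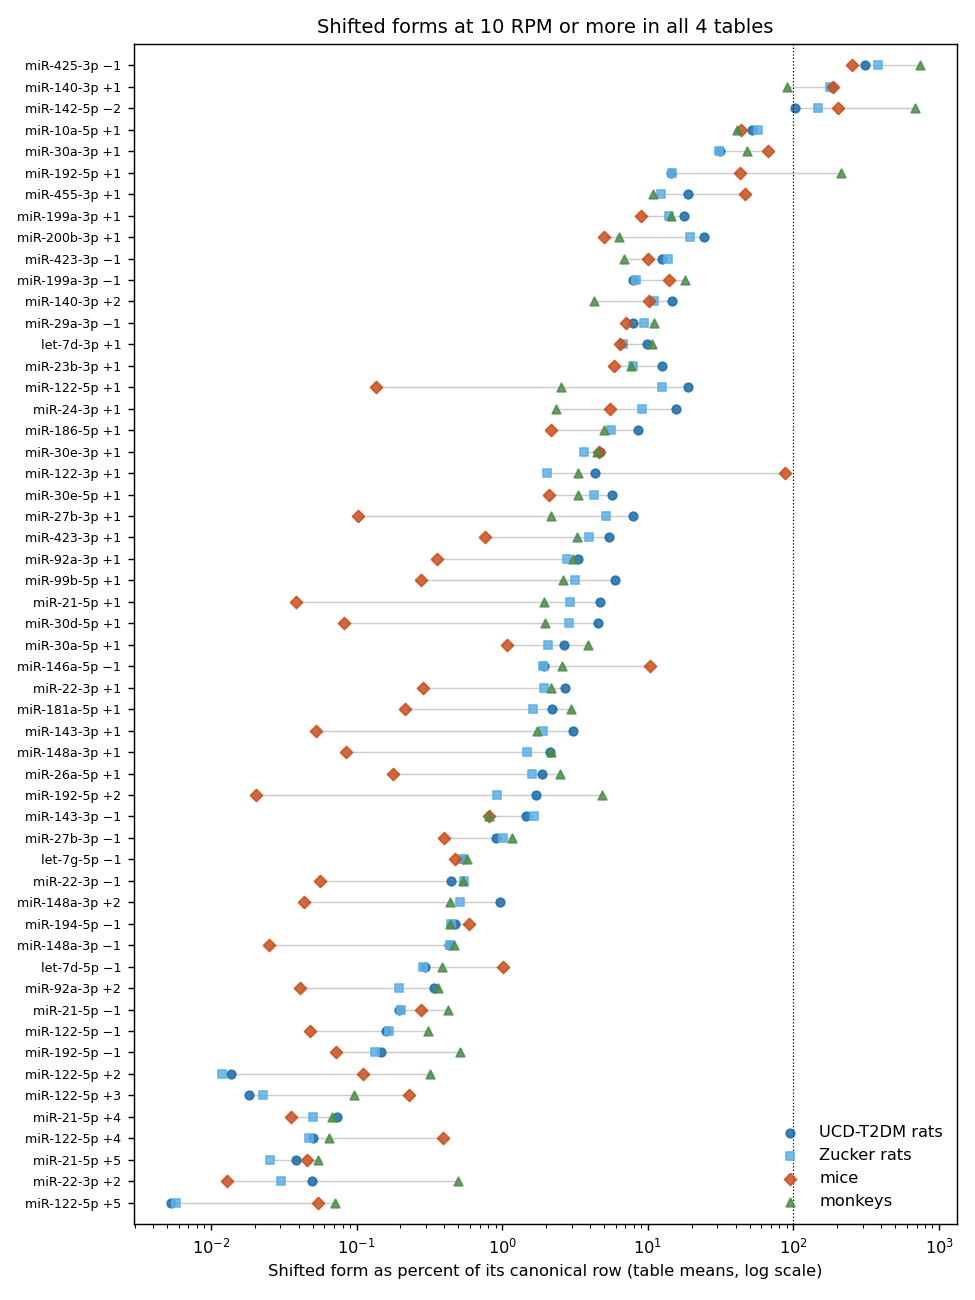
Shifted forms that reached 10 RPM in all 4 tables (54 forms, listed down the page), as the percentage of their canonical entry on a log axis, with 1 point for each of UCD-T2DM rats, Zucker rats, mice and monkeys and a dotted line at 100%. The points of the 2 rat tables lie close together in most forms, while miR-122-5p +1 runs from 0.135% in mice to 18.9% in UCD-T2DM rats.

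The forms ranked much alike in both rat tables, and mice stood furthest away. The percentages themselves were less close, with a median absolute log2 difference of 0.44 between the rat tables. Across forms, the log2 ratios of UCD-T2DM and Zucker rats had a Pearson r of 0.989 over 153 shared forms, which were 83.6% and 93.9% of the forms compared in those tables. Between mice and the other tables r was 0.763 (UCD-T2DM, 66 forms), 0.783 (Zucker, 67 forms) and 0.822 (monkeys, 74 forms). Between monkeys and rats it was 0.882 (UCD-T2DM, 106 forms) and 0.902 (Zucker, 100 forms). These values describe forms that share libraries and are not tests. Of the 54 forms, mice had the lowest percentage in 32 and the highest in 9. The difference was most visible at abundant miRNAs. Over the canonical entries of at least 10000 RPM (18, 18, 20 and 17 per table), the median +1 form stood at 4.93% in UCD-T2DM rats, 2.89% in Zucker rats, 0.135% in mice and 1.95% in monkeys. The median -1 form of the same entries stood at 0.294%, 0.292%, 0.0515% and 0.454%. miR-122-3p +1, from the other arm of the miR-122 hairpin, ran the other way, at 4.34% and 2.04% in the rat tables, 87.8% in mice and 3.32% in monkeys.

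Within each table the ratio of the shifted form to its canonical entry was then compared between groups, with limma on log2((shifted + 1)/(canonical + 1)), since a ratio within 1 library does not depend on how that library was scaled. The p-values are two-sided and adjusted by Benjamini-Hochberg over every pair whose shifted form averaged at least 1 RPM. A form is called where the adjusted p is under 0.05. On this scale differences of low forms are understated. The percentages printed with ± are means of the library percentages with their SD.

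The clearest difference between groups concerned miR-101, a hepatocyte miRNA known for targeting the chromatin enzyme Ezh2. In ob/ob livers the -1 forms of miR-101a-3p and miR-101b-3p rose relative to their canonical forms. miR-101a-3p -1 stood at 87.3%, 85.3%, 100.5%, 97.97% and 98.9% of canonical in the 5 ob/ob libraries and at 46.1%, 49.96%, 49.7%, 52.0% and 51.7% in the 5 control libraries. All ob/ob values thus lay above all control values, and the log2 ratio difference was 0.91 (SE 0.0823, adjusted p = 2.64e-06, limma), a 1.88-fold higher ratio. miR-101b-3p -1 stood at 70.8%, 74.2%, 79.0%, 87.6% and 85.3% in ob/ob and at 39.6%, 44.05%, 42.2%, 44.6% and 44.9% in control libraries. Again each ob/ob library exceeded each control library, with a log2 difference of 0.88 (SE 0.0758, adjusted p = 2.64e-06). Within lanes 7 and 8 the differences were 0.83 and 0.93 for miR-101a-3p -1 and 0.79 and 0.91 for miR-101b-3p -1. As a share of all forms of the miRNA, in place of the ratio to canonical, the differences were 0.54 and 0.56 (adjusted p = 3.21e-06 and 6.87e-07).

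STZ mice lay between the ob/ob mice and the controls for both miR-101 forms. miR-101a-3p -1 stood at 51.3%, 53.6%, 58.2%, 60.3% and 67.6% and miR-101b-3p -1 at 49.0%, 48.5%, 51.8%, 55.6% and 53.2% in the 5 STZ libraries. Against controls the log2 differences were 0.22 (adjusted p = 0.326) and 0.26 (adjusted p = 0.156), neither past the threshold, although for miR-101b-3p -1 the groups did not overlap. ob/ob livers exceeded STZ livers by 0.69 for miR-101a-3p -1 and by 0.62 for miR-101b-3p -1 (adjusted p = 0.000141 for both, limma), and by 0.40 and 0.38 as shares of all forms. In this comparison 3 of 201 forms were called, all higher in ob/ob livers, against 0.943% of all pairs, and 23 had an unadjusted p under 0.05. Libraries did not overlap in 6 higher and 1 lower form, against 3.54% of all pairs. The +1 form of miR-101b-3p did not pass the threshold in ob/ob mice, with a log2 ratio difference of -0.14 (adjusted p = 0.405).

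In ob/ob mice the shifted miR-101 reads were higher while the canonical reads did not pass the test. On the log2(RPM + 1) scale the level of miR-101a-3p -1 rose by 0.89 (adjusted p = 0.0156) and that of its canonical form differed by -0.02 (adjusted p = 0.928). The level of miR-101b-3p -1 rose by 0.72 (adjusted p = 0.0343), and by 0.65 (adjusted p = 0.0565) once the libraries were rescaled by median of ratios. Its canonical form differed by -0.16. Of all 487 forms tested for their level, canonical ones included, 24.4% were called in this comparison.

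The -1 form of miR-101b-3p was also higher relative to canonical in obese Zucker rats, though by less. It stood at 25.6%, 27.8%, 28.6%, 26.4% and 26.4% of canonical in the obese libraries and at 22.7%, 21.95%, 22.3%, 23.4% and 21.8% in the lean libraries. The groups did not overlap. The log2 ratio difference was 0.26 (SE 0.0289, adjusted p = 2.93e-06, limma), a 1.20-fold higher ratio, and it stayed called without any 1 of the 10 libraries. Within lanes 1 and 2, which hold at least 2 libraries of both groups, it was 0.30 and 0.26. miR-101a-3p -1 averaged 34.1% ± 2.22 in obese and 29.2% ± 2.34 in lean rats (SD, n = 5 each), a log2 difference of 0.22 with an adjusted p of 0.0504. The +1 form of miR-101b-3p gave a difference of 0.00 (adjusted p = 0.997). miR-101a-3p -1 and miR-101b-3p +1 are given here because of miR-101b-3p -1, after their values were seen.

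BT2 and vehicle livers did not show a difference in this form. miR-101b-3p -1 stood at 26.9%, 26.96%, 26.4%, 26.6% and 25.6% with BT2 and at 26.7%, 26.8%, 25.2%, 27.5% and 27.4% with vehicle. The log2 difference was -0.01 with a 95% interval of -0.07 to 0.05. All 10 of these libraries lay above the 5 lean libraries, a comparison that was not tested. In UCD-T2DM rats miR-101b-3p -1 stood at 20.7%, 21.9% and 23.4% in prediabetic, between 21.3% and 23.4% in 2-week, and at 23.4%, 25.7% and 23.7% in 3-month livers. The 3-month livers differed from prediabetic livers by 0.14 on the log2 scale (adjusted p = 0.742). The monkey miR-101-1-3p -1 form stood at 187% ± 2.9 with fish oil and 189% ± 26 with sunflower oil (SD, n = 3 each).

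**Figure D3:**
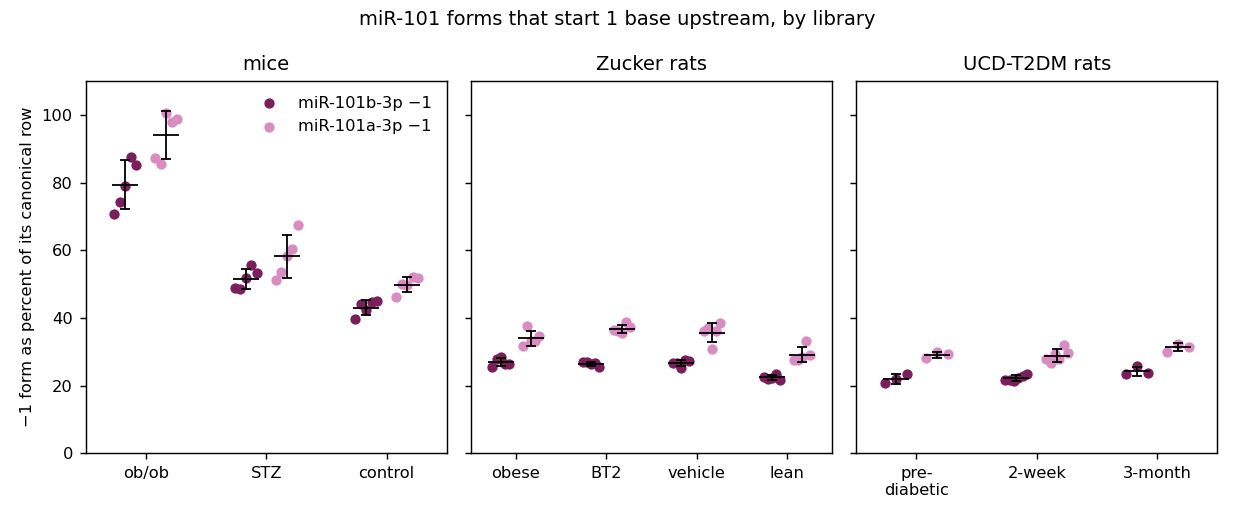
Level of the -1 forms of miR-101b-3p and miR-101a-3p as a percentage of their canonical entry (y axis) in mice, Zucker rats and UCD-T2DM rats, with 1 point per library and bars for the mean ± SD. The ob/ob points (70.8% to 100.5%) lie above all STZ (48.5% to 67.6%) and control points (39.6% to 52.0%), and the lean Zucker points of miR-101b-3p lie below the other 3 Zucker groups.

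Beyond miR-101, more forms were called between ob/ob and control livers than in any other of the 9 comparisons. Of the 201 mouse forms tested, 14 rose and 6 fell relative to their canonical entry, against 4.95% called among all 424 pairs (3.54% higher and 1.42% lower). The median log2 ratio difference was 0.13 over these 201 forms and 0.27 over all pairs. Between STZ and the same control livers it was 0.12 and 0.22, and between ob/ob and STZ livers 0.02 and 0.06. Ratios thus leaned upwards against the shared controls in both mouse models. Libraries did not overlap in 15 higher and 11 lower forms, against 8.49% of all pairs. At an unadjusted p under 0.05 there were 59 forms.

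miR-21-5p -1 belongs to a miRNA that is induced in inflammation and fibrosis, and the form is rare. It stood at 0.354%, 0.339%, 0.374%, 0.400% and 0.320% of canonical in ob/ob, at 0.273%, 0.252%, 0.303%, 0.281% and 0.340% in STZ, and at 0.164%, 0.205%, 0.195%, 0.199% and 0.169% in control libraries. Every ob/ob and STZ library lay above every control library. The log2 ratio difference was 0.93 in ob/ob (adjusted p = 2.16e-05) and 0.62 in STZ mice (adjusted p = 0.0081, limma). It was the only 1 of 201 forms called between STZ and control mice, where 0.236% of all pairs were called and 39 forms had an unadjusted p under 0.05. STZ and control libraries did not overlap in 9 higher and 7 lower forms, against 4.72% of all pairs. With only STZ and control libraries in the fit its adjusted p was 0.0538. ob/ob and STZ mice overlapped in this form and differed by 0.31 (adjusted p = 0.277). The canonical level of miR-21-5p did not pass the test in either group, with differences of -0.32 in ob/ob and 0.34 in STZ mice. Both comparisons use the same controls.

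The ratios of miR-30a-5p +1 and of the miR-140-3p forms were also higher in ob/ob mice. miR-30a belongs to a family abundant in many tissues, and its +1 form stood at 1.04%, 1.35%, 1.41%, 1.66% and 1.48% in ob/ob, at 0.782%, 0.903%, 1.04%, 1.07% and 0.972% in STZ, and at 0.825%, 0.786%, 0.755%, 0.790% and 0.774% in control libraries. ob/ob livers lay above all controls, with a log2 ratio difference of 0.80 (adjusted p = 0.000399), and overlapped with STZ livers, from which they differed by 0.53 (adjusted p = 0.0301). The call against STZ mice did not hold without ob/ob library 2, 3, 4 or 5 or STZ library 1, 2 or 5, with adjusted p up to 0.111, nor with only ob/ob and STZ libraries in the fit (adjusted p = 0.177). In lanes 7 and 8 the difference from controls was 0.58 and 0.95. miR-140-3p +1, named here after its values were seen because its +2 form fell under the naming rule, stood at 204.9%, 199.9%, 236%, 283% and 249% in ob/ob and at 150.5%, 143%, 135%, 154% and 137% in control libraries. The groups did not overlap, and the log2 difference was 0.69 (adjusted p = 0.00132). miR-140-3p +2 averaged 14.2% ± 3.39 in ob/ob and 7.68% ± 1.35 in control mice (SD, n = 5 each), a difference of 0.85 (adjusted p = 0.0108). As a share of all forms of miR-140-3p the +2 form differed by 0.38 and was not called (adjusted p = 0.111). The level of the canonical start differed by -0.30 (adjusted p = 0.0813).

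Upstream forms of miR-125b-2-3p, the passenger arm of a miRNA made from several loci, rose as well. The -3 form averaged 21.99% ± 4.6 of canonical in ob/ob and 9.10% ± 1.75 in control mice (log2 difference 1.16, adjusted p = 0.00283). The -2 form averaged 29.2% in ob/ob and 16.97% in control mice (difference 0.75, adjusted p = 0.0164). It lost its call without ob/ob library 5 or control library 1, with an adjusted p of up to 0.0544, and was 0.50 as a share of all forms. miR-320-3p +2, from a miRNA known to bypass Drosha, averaged 3.39% in ob/ob and 1.60% in control mice (difference 1.03, adjusted p = 0.00283). The other 5 forms that rose were miR-1843-5p +1, miR-151-3p -2, let-7g-5p -1, miR-92a-1-3p +2 and miR-30e-5p +1, with differences between 0.55 and 0.66.

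Among the 6 forms that fell in ob/ob mice, miR-122-3p +1 was the one with the smallest adjusted p. It stood at 67.1%, 76.4%, 59.7%, 71.0% and 75.2% of canonical in ob/ob, at 97.3%, 87.8%, 94.7%, 83.0% and 81.7% in STZ and at 100.4%, 98.7%, 100.1%, 107% and 122% in control libraries. ob/ob libraries lay below all others. Against controls the log2 ratio difference was -0.60 (SE 0.0879, adjusted p = 0.000526), and within lanes 7 and 8 it was -0.48 and -0.74. STZ and control libraries did not overlap either, with a difference of -0.25 that did not pass the test (adjusted p = 0.286). The level of the +1 form fell by 0.66 in ob/ob mice (adjusted p = 0.00872), while that of canonical miR-122-3p differed by -0.07. As a share of all miR-122-3p forms the +1 form differed by -0.35 (adjusted p = 0.00035).

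miR-203-3p +1, from a miRNA best known in skin, stood at 49.3%, 43.5%, 25.3%, 28.9% and 33.3% in ob/ob and at 58.5%, 66.6%, 65.4%, 50.8% and 61.9% in control libraries. The groups did not overlap, and the log2 ratio difference was -0.79 (adjusted p = 0.0264). The canonical level rose by 0.65 (adjusted p = 0.0121), and the shifted level differed by -0.14 (adjusted p = 0.613). The call did not hold without ob/ob library 3, 4 or 5 or control library 1, 2, 3 or 5, with adjusted p up to 0.075. STZ livers stood at 67.1%, 63.9%, 48.05%, 34.8% and 52.3% and overlapped with both other groups. Both miR-1843b-5p forms in view, -1 (difference -0.61, adjusted p = 0.0394) and -2 (-0.90, adjusted p = 0.0353), fell beside a canonical level that rose by 0.85 (adjusted p = 0.00589). These calls were lost in 7 and 6 of the 10 omissions of a library. As shares of all forms of the miRNA the differences were -0.12 (adjusted p = 0.283) and -0.41 (adjusted p = 0.0891), and neither was called. miR-5105 +8 (-1.16, adjusted p = 0.0129) and miR-345-5p -1 (-2.09, adjusted p = 0.0358) had low canonical entries. For miR-345-5p the canonical entry was at 9.14 to 24.9 RPM in ob/ob and 0 to 14.3 RPM in control libraries, and the call was lost in 5 of 10 omissions. As shares of all forms, miR-5105 +8 differed by -0.56 and miR-345-5p -1 by -0.59.

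Marker miRNAs of other cell types also moved between ob/ob and control livers. Of the canonical entries tested, 3 of 11 for stellate cells and fibroblasts and 2 of 8 for blood cells fell, 1 of 11 for hepatocytes rose, and 1 rose and 1 fell of 6 for bile duct. Their summed levels were 14605 to 24164 RPM in ob/ob against 18293 to 25582 RPM in control livers for stellate cells and fibroblasts, and 209200 to 222899 against 186381 to 225662 RPM for hepatocytes. Of the 3 stellate cell entries, 2 are the loci of miR-199a-5p and hold the same values. The hepatocyte list includes miR-101, miR-122 and miR-192. Against STZ livers, 2 of 11 hepatocyte and 1 of 6 bile duct entries were higher in ob/ob livers. Lower in ob/ob than in STZ livers were 2 of 8 blood cell entries and miR-375, the islet marker. The part of these shifts in the ratios was not tested.

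**Figure D4:**
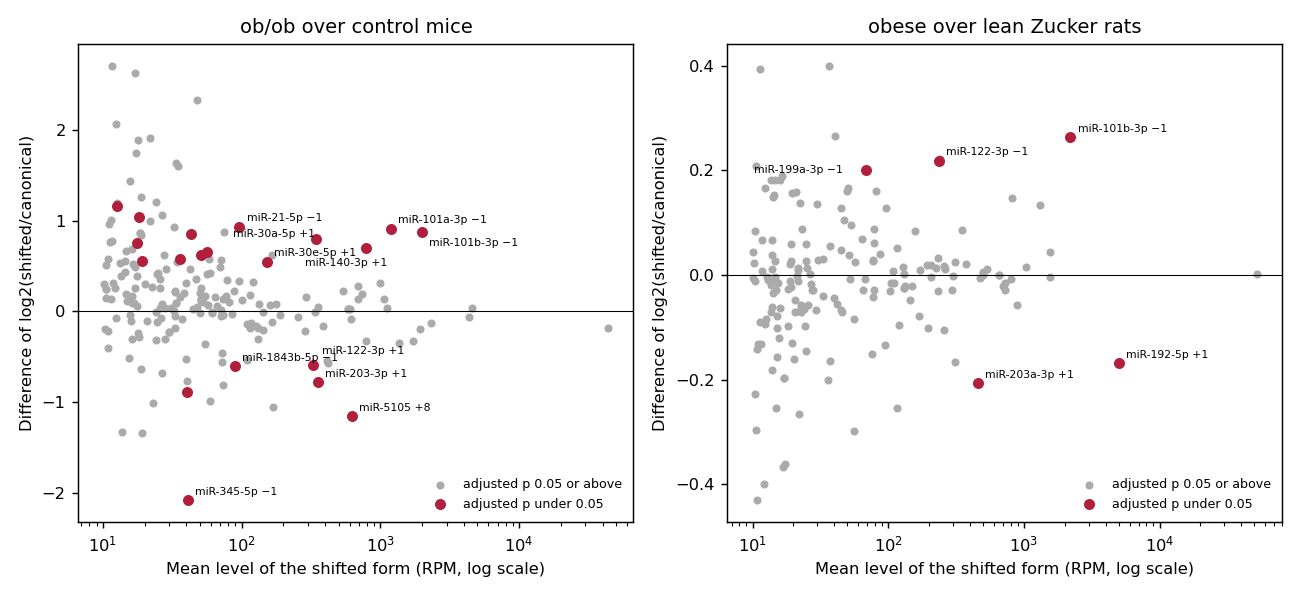
Difference in log2((shifted + 1)/(canonical + 1)) (y axis) against the mean level of the shifted form in RPM (log x axis), left for ob/ob over control mice and right for obese over lean Zucker rats, with forms of adjusted p under 0.05 in red. The miR-101 forms stand at 0.91 and 0.88 on the left and miR-101b-3p -1 at 0.26 on the right, where the y axis covers a smaller range.

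Obese Zucker rats differed from lean rats in 5 of 181 forms, 3 higher and 2 lower, against 1.22% called among all 490 pairs (0.816% higher and 0.408% lower), and 33 forms had an unadjusted p under 0.05. Obese and lean libraries did not overlap in 5 higher and 5 lower forms, against 3.06% of all pairs. The median log2 ratio difference was -0.01 over these forms and -0.03 over all pairs. Besides miR-101b-3p -1, 4 forms were called. miR-192-5p +1 stood at 13.1%, 13.9%, 14.5%, 14.01% and 13.5% in obese and at 16.0%, 15.5%, 15.4%, 15.1% and 15.6% in lean libraries. The groups did not overlap, with a log2 ratio difference of -0.17 (SE 0.0359, adjusted p = 0.0273, limma). The call was lost without obese library 2 or 5 or lean library 1, with adjusted p between 0.0610 and 0.0637. BT2 libraries stood at 14.02%, 14.5%, 16.9%, 14.9% and 14.3% and vehicle libraries at 15.0%, 15.1%, 15.2%, 14.9% and 14.4% for this form, so they overlapped with each other.

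miR-203a-3p +1 fell relative to canonical in obese rats too. It stood at 82.3%, 73.5%, 74.2%, 74.0% and 80.7% in obese and at 83.1%, 79.1%, 90.4%, 95.6% and 96.9% in lean libraries. These groups overlapped, and the log2 difference was -0.21 (SE 0.0471, adjusted p = 0.0369). The call was lost without obese library 2, 3 or 4 or lean library 3, 4 or 5, with adjusted p up to 0.0994. miR-122-3p -1 averaged 26.2% ± 1.57 in obese and 22.5% ± 2.06 in lean rats (SD, n = 5 each), with overlap, a difference of 0.22 (adjusted p = 0.0475). The call was lost without obese library 1, 2, 3 or 5 or lean library 1, 2 or 4, with adjusted p up to 0.132. miR-199a-3p -1 averaged 8.67% ± 0.448 and 7.45% ± 0.514, without overlap, a difference of 0.20 (adjusted p = 0.0475). The call was lost without obese library 2, 3 or 5 or lean library 2 or 3, with adjusted p up to 0.128.

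The calls of miR-203a-3p +1, miR-122-3p -1 and miR-199a-3p -1 also ended with all forms of the miRNA as denominator (adjusted p = 0.050026 for each) and with only obese and lean libraries in the fit (adjusted p = 0.106 for each). With that denominator miR-203a-3p +1 differed by -0.12.

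The ratio of miR-199a-3p -1 rose while both of its forms rose. Its canonical level was 1.13 higher in obese rats on the log2(RPM + 1) scale (adjusted p = 6.89e-05) and its -1 form 1.33 higher (adjusted p = 5.67e-05). miR-199a marks stellate cells and fibroblasts, and 3 of 6 canonical entries of that list rose in obese rats, with a summed level of 8860 to 15653 RPM in obese against 6790 to 10057 RPM in lean livers. Both entries for endothelium, 2 of 5 for blood cells and 2 of 5 for bile duct rose as well, while 1 of 11 for hepatocytes and miR-375, the islet marker, fell. Over all 422 forms tested for their level, 38.6% were called. Obese libraries also listed more forms above 0, at 940 to 1011 against 813 to 952 in lean libraries. The part of these shifts in the ratios was not tested. Rescaling the libraries by median of ratios moved the median level difference of all forms by -0.29 in this comparison, and the rise of the miR-101b-3p -1 level of 0.46 (adjusted p = 0.0268) became 0.16 (adjusted p = 0.382). After rescaling, neither endothelial entry and only 1 of the blood cell and 1 of the bile duct entries kept its call, while all 3 stellate cell entries and miR-375 kept theirs. The ratios are not touched by rescaling apart from the pseudocount.

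The obese rats and the ob/ob mice, which share no library, had 72 tested forms in common by name. Of the 4 called in obese rats and the 12 called in ob/ob mice among them, 2 were called in both and in the same direction. These were miR-101b-3p -1, higher in both, and miR-203a-3p +1 of rats with miR-203-3p +1 of mice, lower in both. The miR-203 call was lost without certain single libraries in both species. By contrast, the rat call of miR-101b-3p -1 held without any 1 library. The sign was the same in 41 of the 72 forms. miR-21-5p -1 was called in ob/ob mice and gave a difference of 0.01 in obese rats (adjusted p = 0.982). miR-192-5p +1 was called in obese rats and gave -0.18 in ob/ob mice (adjusted p = 0.523). Whether these effects differ between the species was not tested.

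**Figure D5:**
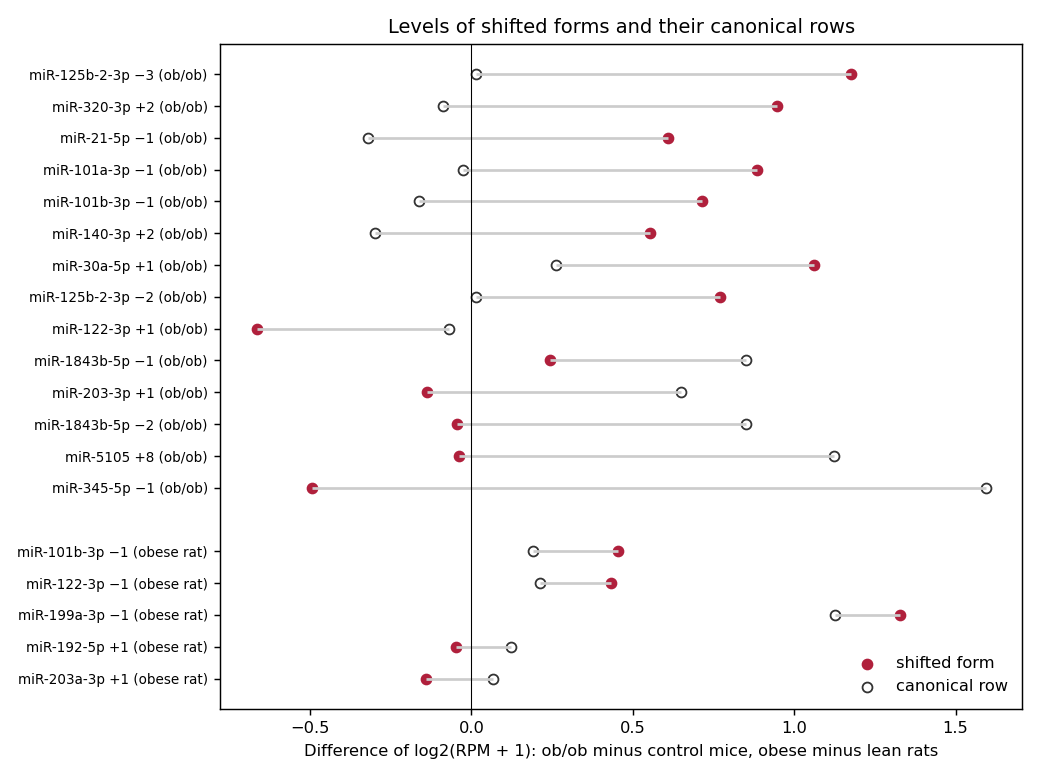
Difference in log2(RPM + 1) of shifted forms (filled) and of their canonical entries (open) for named forms, for ob/ob over control mice and obese over lean Zucker rats. For miR-101a-3p -1 in ob/ob mice the filled point stands at 0.89 and the open one at -0.02. After median-of-ratios rescaling the canonical values of obese rats change sign for miR-101b-3p (0.19 to -0.10), miR-122-3p (0.21 to -0.08), miR-192-5p (0.12 to -0.17) and miR-203a-3p (0.07 to -0.23), as does that of miR-125b-2-3p in ob/ob mice (0.02 to -0.05).

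In UCD-T2DM rats the ratios changed little with the duration of diabetes. None of 201 forms was called between 2-week and prediabetic livers (0.0% of all pairs, limma), and 11 had an unadjusted p under 0.05. Libraries of the 2 groups did not overlap in 1 higher and 3 lower forms, against 1.98% of all pairs. Both forms with the smallest p are given as values. miR-15b-5p +1 averaged 7.07% ± 3.34 in 2-week (n = 6) and 3.05% ± 0.757 in prediabetic livers (n = 3), a log2 difference of 1.02 with an adjusted p of 0.468. miR-455-3p +1 averaged 20.5% ± 1.71 and 16.0% ± 2.89, a difference of 0.37 with the same adjusted p. None was called between 3-month and prediabetic livers either (0.0% of all pairs), and 18 had an unadjusted p under 0.05. In that comparison the groups did not overlap in 19 higher and 8 lower forms, against 12.5% of all pairs.

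Between 3-month and 2-week livers 2 of 201 forms were called, against 0.395% of all pairs, with 39 at an unadjusted p under 0.05. In 13 higher and 4 lower forms these groups did not overlap, against 5.93% of all pairs. miR-192-5p +1 stood at 14.4%, 14.4% and 14.5% in prediabetic libraries, between 14.6% and 15.0% in 2-week libraries and at 14.1%, 13.9% and 13.6% in 3-month libraries. The 3-month livers lay below both other groups without overlap. The log2 difference was -0.09 against 2-week livers (SE 0.0146, adjusted p = 0.00986, limma) and -0.06 against prediabetic livers (adjusted p = 0.742). miR-378a-3p +1, from a miRNA within the coactivator gene Ppargc1b, stood at 8.56%, 8.93% and 8.93% in prediabetic, between 8.25% and 8.63% in 2-week and at 9.72%, 9.16% and 9.06% in 3-month libraries. The log2 difference between 3-month and 2-week livers was 0.15 (SE 0.0251, adjusted p = 0.00986), and without 3-month library 1 the adjusted p was 0.0819. The canonical level of miR-378a-3p fell by 0.36 (adjusted p = 0.00766) in 3-month livers. Both differences are small beside those in ob/ob mice. Of all 435 forms, 25.1% were called for their level, and rescaling moved the median level difference by -0.15. In the same comparison both canonical entries for endothelium and miR-375, an islet and endocrine miRNA, rose. Of 11 hepatocyte entries tested, 1 rose and 1 fell. These calls are of levels without rescaling, and the part of such shifts in the ratios was not tested.

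BT2 and vehicle livers had no called form among 181 (0.0% of all pairs, limma), and 14 had an unadjusted p under 0.05. Non-overlapping groups were seen in 2 forms, both lower with BT2, against 1.63% of all pairs. miR-421-3p +4 averaged 249% ± 69.6 with BT2 and 139% ± 32.7 with vehicle (SD, n = 5 each), a log2 difference of 0.78 with an adjusted p of 0.272. miR-21-5p +5 averaged 0.0206% ± 0.00133 with BT2 and 0.0252% ± 0.00262 with vehicle, a difference of -0.25 with an adjusted p of 0.348. Fish oil and sunflower oil monkeys had no called form among 322, against 0.35% of all pairs, and 37 had an unadjusted p under 0.05. Fish oil libraries lay wholly above those with sunflower oil in 42 forms and wholly below in 17, against 15.4% of all pairs without overlap. let-7a-2-5p -1 averaged 0.278% with fish oil and 0.396% with sunflower oil (difference -0.51, adjusted p = 0.310), and miR-10a-5p +2 averaged 1.61% and 0.959% (difference 0.72, adjusted p = 0.318). In monkeys miR-192-5p +1 exceeded its canonical form, at 203.02% ± 6.12 with fish oil and 219.7% ± 14.7 with sunflower oil (SD, n = 3 each).

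Messenger RNAs of the miRNA processing machinery were examined here in UCD-T2DM livers only. Of 29 listed genes 27 passed the filter on low values. Between 3-month and prediabetic livers 2 of them rose and none fell, against 16.5% of 13640 genes called in either direction and 7.76% higher. Ago2, the Argonaute protein that cuts targets, averaged 109 ± 11.0 normalised counts in 3-month and 69.9 ± 18.3 in prediabetic livers (SD, n = 5 each), a log2 difference of 0.68 (adjusted p = 0.0232, limma). Parn, a ribonuclease that trims 3′ ends, averaged 362 ± 37.7 and 279 ± 13.8, a difference of 0.37 (adjusted p = 0.0327). The Ago2 call was lost without prediabetic library 2 or 3-month library 1. The Parn call was lost in 7 of 10 omissions, namely without prediabetic library 1, 2, 3 or 4 or 3-month library 1, 2 or 3, with adjusted p from 0.0531 to 0.0824. No gene of the list was called between 2-week and prediabetic livers (0.0% of all genes) or between 3-month and 2-week livers (2.35%, or 1.15% higher). Drosha averaged 885 normalised counts in 2-week and 793 in prediabetic livers (difference 0.16, adjusted p = 0.635), and Dicer1 1667 and 1665 (difference 0.01, adjusted p = 0.987). Drosha and Dicer1 differed by -0.04 (adjusted p = 0.829) and -0.02 (adjusted p = 0.939) between 3-month and 2-week livers.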

How the data were processed

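Small RNA of liver was measured in 53 libraries (TriLink CleanTag kit, per the labels' protocols) held in 4 tables, and polyadenylated RNA of UCD-T2DM rats (Illumina TruSeq kit) in a further one. The small RNA values are RPM made by the authors; each library sums to 1000000, whole reads could not be recovered, and depth is unknown. The RNA values are normalised counts, a signal scaled by the authors as deposited. The submitters' processing notes name STAR, Salmon and DESeq2 and the builds hg19, mm10, mm9 and rn6, without versions or roles. Groups follow the sample titles. The run name of vehicle replicate 5 says BT2, and the title was followed. Several loci of 1 mature form have entries of their own that can hold the same reads, so their values are uncertain.

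Shifted forms with a table mean of at least 10 RPM were described as a percentage of the canonical entry of the same name. limma 3.58.1 in R 4.3.3 was fitted to log2((shifted + 1)/(canonical + 1)) over all pairs with a shifted mean of at least 1 RPM (506, 490, 424 and 857 pairs), with all groups of a table sharing the spread and the mean level of the shifted form as trend; levels were fitted as log2(RPM + 1), and genes as log2(normalised count + 1) at a mean of at least 10. Adjusted p under 0.05 was called in 9 comparisons of ratios. The procedure was tested on simulated ratios, with 50 pairs moved by a log2 difference of 1 in 1 comparison per table. Of these, 46 were called in UCD-T2DM rats, 47 in Zucker rats, 23 in mice and 21 in monkeys. Among unmoved pairs 1, 3, 0 and 2 were called. Changes of that size were thus often missed in mice and monkeys. Sequences are RefSeq's, matched for 183 of 205 forms in UCD-T2DM rats and 163 of 185 in Zucker rats; coordinates are of GRCr8.

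The forms and lists were chosen with earlier results of these data known. The naming rule took the 5 highest percentages per table, all miR-122-5p forms, the 10 highest of the forms shared by the 4 tables, the neighbours of the limit, and up to 8 called forms per direction and comparison, or the 2 with the smallest p. Alternatives were other pseudocounts, filters, denominators, lane, the replicate block, locus averaging, rescaling and the omission of each library. RNA of the mouse table was not analysed here.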

Additional observations from a re-analysis of the deposited data

Results flagged for a closer look

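In 15 of 267 combinations of a form and a group, 1 library lay far from the others of its group; chance gives about 1 in 20 such groups. Values are percentages of the canonical form. In Zucker rats, miR-101a-3p -1 was at 33.2% in lean library 4 (others 27.6% to 29.1%) and at 30.9% in vehicle library 3 (36.1% to 38.4%). miR-101b-3p +1 was at 7.21% in obese library 1 (7.40% to 7.46%). Vehicle library 3 also stood apart for miR-122-5p +2, at 0.0148% (0.0115% to 0.0119%), and for miR-122-5p +3, at 0.0227% (0.0260% to 0.0270%). miR-126a-3p +1, from an endothelial miRNA, was at 86.8% in BT2 library 4 (78.3% to 80.7%), and miR-21-5p +5 at 0.0230% in BT2 library 3 (0.0198% to 0.0203%). miR-378a-3p +1 was at 7.29% in lean library 5 (6.51% to 6.69%), and miR-423-3p -1 at 15.2% in obese library 4 (12.6% to 13.2%).

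In mice, miR-122-3p -1 was at 1.07% in STZ library 2, while the other STZ libraries listed it at 0. miR-140-3p +1 was at 246% in STZ library 4 (169% to 181%). Among controls, miR-122-5p +4 was at 0.342% in library 4 (0.162% to 0.189%), miR-125b-2-3p -3 at 12.1% in library 5 (7.79% to 8.90%) and miR-192-5p +1 at 49.2% in library 3 (42.2% to 43.9%). In 2-week UCD-T2DM rats, miR-375-3p -1 was at 4.42% in library 4 (5.21% to 5.79%).

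Tests between 2 model groups called 5 ratios. ob/ob over STZ mice gave log2 differences of 0.69 for miR-101a-3p -1 (adjusted p = 0.000141), 0.62 for miR-101b-3p -1 (adjusted p = 0.000141) and 0.53 for miR-30a-5p +1 (adjusted p = 0.0301). 3-month over 2-week UCD-T2DM rats gave -0.0892 for miR-192-5p +1 and 0.15 for miR-378a-3p +1 (adjusted p = 0.00986 for both, limma).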

How the results depend on the processing

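Of the values of named forms and genes, 299 kept their direction and their side of the threshold under other settings and 56 lost the call; with a library left out the numbers were 297 and 65, and 4 changed sign. The counts of called forms that moved are these. Between 3-month and 2-week livers (2 called) a pseudocount of 5 gave 11 and a limit of 5 RPM gave 5. Between obese and lean rats (5 called) a pseudocount of 5 gave 18, the share of all forms of a miRNA as denominator 2, only these groups in the fit 2, and lanes 1 and 2 alone 0 each. Between ob/ob and control mice (20 called) the share of all forms gave 36, lane 7 alone 4 and lane 8 alone 13. Between STZ and control mice (1 called) a limit of 5 RPM gave 2, the share of all forms 7, only these groups 0, a lane term 2, and lanes 7 and 8 alone 0 each. Between ob/ob and STZ mice (3 called) the share of all forms gave 6 and lane 8 alone 0. Fish oil against sunflower oil (0 called) gave 1 with a pseudocount of 5. Of the processing genes, 3-month against prediabetic livers gave 0 calls without a filter on low values, with adjusted p = 0.0552 for Ago2 and 0.0571 for Parn.

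With each library left out in turn the counts ran from 0 to 0 (2-week against prediabetic), 0 to 1 (3-month against prediabetic), 1 to 5 (3-month against 2-week), 1 to 6 (obese), 0 to 0 (BT2), 13 to 22 (ob/ob), 1 to 1 (STZ), 2 to 4 (ob/ob against STZ) and 0 to 3 (fish oil), and in RNA from 0 to 2 (3-month against prediabetic) and 0 to 0 (the other 2 comparisons). Single libraries moved the count by over 1.5 times: without 3-month library 3 it was 1 against prediabetic livers; against 2-week livers it was 1 without 3-month library 1, 5 without 3-month library 3 and 5 without 2-week library 6. In obese rats it was 1 without obese library 2, 2 without obese library 3 or 5, and 3 without lean library 1, 2 or 3; in ob/ob mice 13 without ob/ob library 5; in monkeys 3 without fish oil library 1. Of the processing genes between 3-month and prediabetic livers, 0 were called without prediabetic library 2 or 3-month library 1, and 1 without prediabetic library 4 or 3-month library 2 or 3. Dicer1 between 2-week and prediabetic livers ran from -0.0765 to 0.0720 and changed sign without prediabetic library 2 (-0.0765), 2-week library 1 (-0.000483) or 3 (-0.00499). Between 3-month and 2-week livers it ran from -0.0586 to 0.0359 and changed sign without 3-month library 4 (0.0359). The causes were not tested.

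Whether the replicate numbers pair the libraries is unknown, and correlations of same-numbered libraries cannot settle it. In no comparison were all such pairs correlated above 0.1, although 4 of the 5 pairs of ob/ob and STZ mice were (0.58, 0.54, 0.39 and 0.44, against 0.03 for pair 5). With the replicate block the counts were 0, 0, 2, 4, 0, 29, 1, 3 and 0 in the order of the comparisons above, and 0, 2 and 0 for the processing genes in 2-week against prediabetic, 3-month against prediabetic and 3-month against 2-week livers; 19 of the 20 ob/ob calls and 3 of the 5 obese calls remained, and neither of the 3-month against 2-week calls did (adjusted p = 0.0929 for both). Parn lost its call with the block (adjusted p = 0.0512), while Ago2 kept it and 1 other listed gene was called lower. Depth is unknown, so low canonical entries limit the percentages most, above all in mice.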

Other observations

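In rats a shifted start can carry the seed of another miRNA. This held for 24 of the 183 forms with a sequence in UCD-T2DM rats and for 22 of 163 in Zucker rats. These sets were looked at after the values were seen. The let-7 family, which restrains growth genes, and miR-27b, a miRNA of lipid metabolism, are shown because their +1 forms outnumbered the miRNAs whose seed they share.
let-7a-5p: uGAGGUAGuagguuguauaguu
let-7a-5p +1: gAGGUAGUagguuguauaguu
miR-27b-3p: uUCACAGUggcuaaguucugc
miR-27b-3p +1: uCACAGUGgcuaaguucugc
The capitals again mark the seed in RefSeq sequence of GRCr8, with the let-7a-1 locus at chr17:16320145-16320166 on the plus strand and miR-27b-3p at chr17:1819163-1819183, within Aopep, on the minus strand. The +1 forms of 8 let-7 and miR-98 miRNAs summed to 4848 RPM in UCD-T2DM rats and 3542 RPM in Zucker rats, against 1.86 and 1.09 RPM for miR-196, which has that seed canonically. The +1 forms of miR-27a-3p and miR-27b-3p summed to 341 RPM in UCD-T2DM rats, against 107 RPM for canonical miR-128-3p, and miR-27b-3p +1 stood at 208 RPM in Zucker rats, against 137 RPM. The reverse held for miR-21-5p +4, with 44.4 and 26.9 RPM against 292 and 240.0 RPM of miR-361-5p, and for miR-10b-5p -2, with 36.8 and 71.0 RPM against 1444 and 1278 RPM of miR-10a-5p.

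The first base also changed with the start. Of 97 +1 forms with a sequence in UCD-T2DM rats, 54 began with U in canonical form and 14 in shifted form, in which G (37) and A (35) were the most frequent first bases. Of 36 -1 forms, 25 began with U in canonical and 7 in shifted form. In Zucker rats the numbers were 50 and 13 of 90 for +1 forms and 22 and 4 of 31 for -1 forms. Among all 724 mature rat miRNAs in the table, 271 began with U.

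A few shifted forms had no canonical entry. They were miR-10b-5p -2, miR-29b-1-5p -5 and miR-7a-1-3p +1 in both rat tables, miR-7a-1-3p +2 in UCD-T2DM rats, miR-10b-5p -1 in Zucker rats, and miR-101c -1, miR-181a-2-3p -3 and miR-1843b-3p -1, -2 and -3 in mice. The miR-101c -1 form averaged 80.2 RPM in mice. miR-10b-5p -2 varied widely between libraries, at 23.5, 174.9, 92.6, 61.2 and 141 RPM in obese against 38.4, 47.8, 10.2, 45.03 and 34.4 RPM in lean Zucker rats.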
